A study of Mus musculus with 16 samples.

Results

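The genes described here are 7 mouse organic ion transporters of the solute carrier family 22: Slc22a5, Slc22a7, Slc22a18, Slc22a26, Slc22a27, Slc22a28 and Slc22a30. They were selected on their levels (normalised read counts) in the 4 groups, from a list of symbols, and found among the 55471 gene identifiers of the count tables through a GRCm38 annotation, and all 7 were found. Because of that choice the differences between groups are given for them as a description, without p-values. The other 19 genes named Slc22a in the annotation serve for comparison, and p-values are given for those. All 7 listed genes passed the filter on low counts. Of the other 19, 9 passed, and the remaining 10 never had more than 10 fragments in any library.

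RNA was sequenced from frozen pieces of liver of 16 mice, 4 in each of 4 groups. Aged PAM I and aged PAM II are groups of mice aged 102 weeks whose labels give antibiotic exposure. Aged no-antibiotic mice were also 102 weeks old and had no antibiotics, and young adult mice were 12 weeks old and had none either. The title of the series puts the antibiotic exposure in early life. The labels used here give no drug, dose, sex, strain, litter or cage, and 1 text field calls the young mice aged where their title, age and group fields do not, and these last were followed. Each library had 36968993 to 52090914 fragments counted in genes. Summed hepatocyte markers (8 genes, among them Alb and Apoa1) lay between 65900 and 124000 CPM (counts scaled to library size) in the 16 libraries. The 7 markers of kidney proximal tubule, where many Slc22a genes are abundant, summed to at most 4.32 CPM, and 2 of them, Kap and Slc22a6, had no fragment in any library. Skeletal muscle markers (10 genes, of which 2 had a fragment in every library) varied widely within groups, between 1.96 and 41.1 CPM in PAM I livers, 1.70 and 103 CPM in PAM II livers, 0.723 and 12.3 CPM in aged no-antibiotic livers and 1.10 and 108 CPM in young livers.

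Slc22 proteins sit in the plasma membrane and move charged small molecules. The family holds organic cation transporters, carnitine and zwitterion transporters, and organic anion transporters, and in liver and kidney it takes up drugs, toxins, hormone conjugates and metabolites. Slc22a5 (OCTN2) is the sodium-dependent carnitine transporter. Carnitine carries long-chain fatty acids into mitochondria, and loss of the transporter causes systemic carnitine deficiency. Slc22a7 (OAT2) is an organic anion transporter of the hepatocyte. Slc22a18 lies in the imprinted Kcnq1 domain and is expressed mainly from the maternal allele. Slc22a26, Slc22a27, Slc22a28 and Slc22a30 belong to a group of organic anion transporter genes that has expanded in rodents, and less is known of what they carry.

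In the GRCm38 annotation, Slc22a5 lies at chr11:53864542-53891660 on the minus strand, Slc22a7 at chr17:46432183-46438457 on the minus strand and Slc22a18 at chr7:143473736-143499334 on the plus strand. The other 4 lie in 1 row on the minus strand of chromosome 19, together with Slc22a29, which is not on the list. Their positions are chr19:7781041-7802667 for Slc22a26, chr19:7864388-7966027 for Slc22a27, chr19:8062209-8131982 for Slc22a28, chr19:8160165-8218900 for Slc22a29 and chr19:8335371-8405111 for Slc22a30. Fragments were summed over all exons of each gene. No exon of the 7 genes overlapped an exon of another annotated gene.

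The chromosome 19 genes form close pairs. The coding sequences (longest open reading frame of a transcript) of Slc22a28 and Slc22a30 were 98.8% identical, and those of Slc22a27 and Slc22a29 were 97.3% identical. Across these pairs identity was 91.7 to 92.3%, and Slc22a26 was 74.3 to 74.8% identical to the other 4. The bases upstream of the start sites differ more than the coding sequences do. They are shown because the genes of the first pair were lower, and those of the second pair higher, in aged than in young livers. Each sequence is the 250 bases before the RefSeq start site, read 5′ to 3′ on the minus strand of GRCm38.p6. They span chr19:8405106-8405355 for Slc22a30, chr19:8131983-8132232 for Slc22a28, chr19:8218901-8219150 for Slc22a29, chr19:7966028-7966277 for Slc22a27 and chr19:7802668-7802917 for Slc22a26. Capitals in Slc22a30 and Slc22a28 mark the bases at which these 2 differ, capitals in Slc22a29 mark the bases that differ from Slc22a30 within their alignment, and capitals in Slc22a26 mark a motif match.
Slc22a30: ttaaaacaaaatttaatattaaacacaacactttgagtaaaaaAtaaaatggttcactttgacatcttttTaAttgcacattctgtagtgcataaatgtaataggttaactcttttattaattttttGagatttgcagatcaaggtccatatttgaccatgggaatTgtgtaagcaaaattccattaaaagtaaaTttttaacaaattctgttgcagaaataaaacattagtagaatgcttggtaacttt
Slc22a28: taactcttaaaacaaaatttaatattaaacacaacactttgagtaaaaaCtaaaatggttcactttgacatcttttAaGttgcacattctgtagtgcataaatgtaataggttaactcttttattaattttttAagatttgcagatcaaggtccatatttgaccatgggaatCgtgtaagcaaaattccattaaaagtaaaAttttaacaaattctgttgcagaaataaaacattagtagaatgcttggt
Slc22a29: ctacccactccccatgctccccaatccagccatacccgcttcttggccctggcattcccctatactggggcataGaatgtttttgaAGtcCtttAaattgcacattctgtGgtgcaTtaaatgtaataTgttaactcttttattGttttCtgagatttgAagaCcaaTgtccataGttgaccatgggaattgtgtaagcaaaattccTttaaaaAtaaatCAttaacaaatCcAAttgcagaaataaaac
Slc22a27: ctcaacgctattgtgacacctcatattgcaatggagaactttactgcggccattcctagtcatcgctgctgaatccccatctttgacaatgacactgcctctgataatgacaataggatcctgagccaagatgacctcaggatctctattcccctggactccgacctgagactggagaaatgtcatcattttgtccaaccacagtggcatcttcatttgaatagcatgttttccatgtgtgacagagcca
Slc22a26: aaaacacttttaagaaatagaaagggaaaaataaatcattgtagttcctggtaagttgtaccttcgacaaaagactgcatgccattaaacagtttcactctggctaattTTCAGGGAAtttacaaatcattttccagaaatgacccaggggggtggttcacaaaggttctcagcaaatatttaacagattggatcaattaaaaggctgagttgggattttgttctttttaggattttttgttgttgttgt

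The upstream bases of Slc22a28 and Slc22a30 aligned over 244 columns with 238 identical, the 6 differences being the capitals. Slc22a29 aligned to Slc22a30 over 184 columns with 158 identical, and its first bases lay outside the alignment. Slc22a27, whose coding sequence is so close to that of Slc22a29, shared no long stretch of upstream sequence with it: the best local alignment was 36 columns with 26 identical. Against Slc22a28 and Slc22a30 the best alignment of Slc22a27 was 15 columns. Slc22a26 aligned to Slc22a30 over 196 columns with 117 identical.

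Each promoter was searched on both strands for 5 motifs: TTCNNNGAA (bound by STAT proteins and BCL6), ATTGATT (ONECUT proteins and CUX2), CAAAGTCCA (HNF4), the HNF1 motif and TATAAA (the TATA box). Of these, TTCNNNGAA was found once, in Slc22a26, starting 141 bases before the start site, and 7.02% of 32851 RefSeq promoter windows of the same length hold it. No other match was found in the windows of Slc22a5, Slc22a18, Slc22a26, Slc22a27, Slc22a28, Slc22a29 or Slc22a30, and the shares of all promoters that hold the other 4 were 2.61% for ATTGATT, 0.384% for CAAAGTCCA, 0.00913% for the HNF1 motif and 12.4% for TATAAA. A match or its absence in these letters says nothing of binding. The upstream window of Slc22a5 held 30 CpG dinucleotides, against a median of 6 over all promoters, whereas Slc22a18 and Slc22a30 held 0, Slc22a26, Slc22a28 and Slc22a29 held 1 each, and Slc22a27 held 4.

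Because the copies are alike, part of their exon sequence cannot be assigned to 1 gene from a read alone. Of all 100-base windows along the exons, 37.0% in Slc22a28 and 21.1% in Slc22a30 were also present in another annotated gene. The share was 7.31% in Slc22a27 and 7.51% in Slc22a29, and 0.558% in Slc22a26. Slc22a5 shared 12.9% with Slc22a21, its neighbour on chromosome 11, and Slc22a7 and Slc22a18 shared none. Values of Slc22a28, and to a lesser degree Slc22a30, are uncertain to that extent.

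Scaled by exon length, which allows levels of different genes to be compared, Slc22a18 was the highest of the 7 genes. It averaged 67.0 ± 7.91 CPM per kilobase of exon in PAM I livers, 59.4 ± 7.51 in PAM II livers, 58.3 ± 6.81 in aged no-antibiotic livers and 67.3 ± 4.07 in young livers (SD, n = 4 each). Slc22a30 came second of the 7 in every group, at 21.0 ± 2.95, 21.5 ± 5.81 and 25.8 ± 3.44 CPM per kilobase in PAM I, PAM II and aged no-antibiotic livers and 40.6 ± 4.56 in young livers. Below Slc22a30 the order of the genes differed between aged and young livers. In aged no-antibiotic livers Slc22a7 (10.2 ± 6.74 CPM per kilobase), Slc22a5 (5.24 ± 1.26), Slc22a27 (4.89 ± 1.14) and Slc22a26 (4.06 ± 4.67) had ranges that overlapped, and Slc22a28 (1.71 ± 0.666) had the lowest mean. In young livers Slc22a7 (19.7 ± 11.4 CPM per kilobase) was followed by Slc22a28 (6.55 ± 0.766) and Slc22a5 (4.96 ± 1.04), and Slc22a27 (0.308 ± 0.186) and Slc22a26 (0.228 ± 0.169) came last. The kidney transporters Slc22a6 (OAT1), Slc22a8 (OAT3) and Slc22a12 (URAT1) had at most 0, 1 and 10 fragments in a library.

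**Figure D1:**
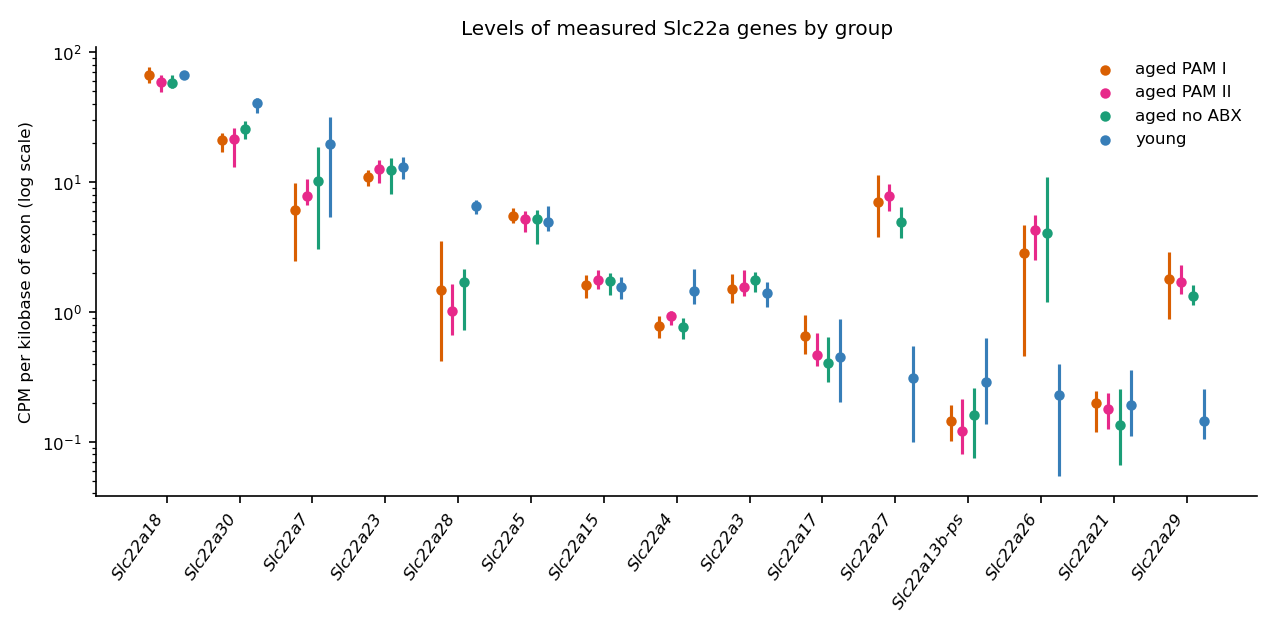
Mean level (points) and range over 4 livers (lines) of Slc22a genes that passed the filter on low counts, in CPM per kilobase of exon on a log axis, by group. Slc22a27, Slc22a26 and Slc22a29 stand far lower in young livers than in the 3 aged groups, and Slc22a28 and Slc22a30 stand higher in young livers.

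Slc22a5, the carnitine transporter, had nearly the same level in all groups. It had 19.4, 16.3, 16.6 and 15 CPM in PAM I livers and 12.6, 15.9, 16.7 and 18.4 CPM in PAM II livers. Aged no-antibiotic livers had 17.6, 17.8, 18.6 and 10.3 CPM, and young livers had 12.8, 13.9, 14.3 and 19.9 CPM. The ranges of all 4 groups overlapped, and a single aged no-antibiotic liver, replicate 4, was the lowest of the 16. The log2 fold change (± SE of the fit) was 0.08 ± 0.18 in aged no-antibiotic over young livers, 0.06 ± 0.18 in PAM I over aged no-antibiotic livers and -0.02 ± 0.18 in PAM II over aged no-antibiotic livers. The other genes of carnitine synthesis and the carnitine shuttle, 12 in all and including Cpt1a, Cpt2, Slc25a20 and Bbox1, gave 0 higher and 0 lower calls in aged no-antibiotic against young livers, with a median log2 fold change of 0.16 beside -0.01 over all genes. Against young livers 1 of the 12 was called higher in PAM I and 1 in PAM II, beside 4.83% and 3.17% of all genes.

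Slc22a7, the organic anion transporter, was the most variable of the 3 genes outside chromosome 19. It had 5.16, 7.96, 20.6 and 17.6 CPM in PAM I livers and 14.1, 14, 22 and 15.1 CPM in PAM II livers. It had 39.3, 25.1, 14.7 and 6.44 CPM in aged no-antibiotic livers and 34.0, 53.5, 11.3 and 66.3 CPM in young livers. In 3 young livers it was above every PAM I and PAM II liver, while young replicate 3 was lower than each PAM II liver, so that no 2 groups were separate. Within the aged no-antibiotic group the highest liver exceeded the lowest 6.10-fold, and within the young group 5.86-fold. Log2 fold changes were -0.95 ± 0.55 in aged no-antibiotic over young livers, -1.69 ± 0.56 in PAM I over young livers and -1.34 ± 0.56 in PAM II over young livers. These 3 comparisons share the young livers.

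Slc22a18 was even across the 16 livers. PAM I livers had 98.8, 108, 130 and 119 CPM, PAM II livers had 83.4, 107, 100 and 113 CPM, aged no-antibiotic livers had 102, 114, 90.3 and 89.8 CPM, and young livers had 118, 109, 122 and 108 CPM. The groups overlapped, and the log2 fold change was -0.21 ± 0.12 in aged no-antibiotic over young livers and 0.20 ± 0.12 in PAM I over aged no-antibiotic livers. Of 14 neighbouring genes of the imprinted domain, among them Cdkn1c, Kcnq1 and Phlda2, 12 were measured and 0 passed the test in either direction in aged no-antibiotic against young livers (edgeR quasi-likelihood test, Benjamini-Hochberg adjusted, median log2 fold change 0.18). Against young livers 2 of the 12 were called higher in PAM I and 2 in PAM II, beside 4.83% and 3.17% of all genes.

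The listed chromosome 19 genes differed between aged and young livers. The labels give no sex, litter or cage, and the part of these in the difference was not tested. In aged livers of all 3 groups Slc22a26 and Slc22a27 were higher, and Slc22a28 and Slc22a30 lower, than in young livers. No aged group overlapped with the young livers for any of these 4 genes, which were listed for their levels in these groups. Of all genes, 16.9% did not overlap with young livers in PAM I, 14.3% in PAM II and 9.27% in aged no-antibiotic livers. In bulk liver, fewer cells that express a gene and less RNA per cell cannot be told apart. Bile duct markers (5 genes) summed to 38.6 to 137 CPM in PAM I livers, 43.3 to 204 CPM in PAM II livers and 53.5 to 141 CPM in aged no-antibiotic livers, against 30.6 to 47.1 CPM in young livers. Kupffer cell markers (6 genes) summed to 145 to 618, 204 to 818 and 98.8 to 398 CPM in the same aged groups, against 129 to 176 CPM in young livers. The part of these cell types in the results was not tested.

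Slc22a27 was separate between aged and young livers, with little spread within the aged no-antibiotic group. It had 24.5, 18.2, 8.13 and 9.62 CPM in PAM I livers, 12.9, 20.6, 15.5 and 18.2 CPM in PAM II livers and 9.82, 8.05, 10.3 and 13.9 CPM in aged no-antibiotic livers, against 0.214, 1.17, 0.729 and 0.536 CPM in young livers. The lowest aged liver was well above the highest young liver. The young values rest on 7 to 47 fragments per library, and the aged no-antibiotic values on 352 to 625. The log2 fold change over young livers was 4.48 ± 0.43 in PAM I, 4.64 ± 0.43 in PAM II and 3.96 ± 0.42 in aged no-antibiotic livers. As a linear ratio, the fitted fold of aged no-antibiotic over young livers was 15.5.

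Slc22a26 differed from young livers by about as much but varied far more between aged livers. It had 12.8, 5.88, 13.7 and 1.36 CPM in PAM I livers, 7.39, 12.0, 16.5 and 14.3 CPM in PAM II livers and 32.4, 7.80, 3.55 and 4.05 CPM in aged no-antibiotic livers, against 0.336, 1.02, 1.17 and 0.161 CPM in young livers. Replicate 4 of PAM I was the only aged liver close to the young range, and replicate 1 of the aged no-antibiotic group was the highest of all 16. The log2 fold change over young livers was 3.62 ± 0.84 in PAM I, 4.19 ± 0.85 in PAM II and 4.13 ± 0.85 in aged no-antibiotic livers. Without that highest liver the last value was 2.91.

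Slc22a28 had 0.839, 0.855, 7.03 and 3.15 CPM in PAM I livers, 2.05, 1.47, 3.31 and 1.34 CPM in PAM II livers and 3.79, 4.28, 4.19 and 1.45 CPM in aged no-antibiotic livers, against 12.3, 11.4, 14.5 and 14.3 CPM in young livers. The young livers lay close together, whereas within PAM I the highest liver exceeded the lowest 8.38-fold. The log2 fold change over young livers was -2.14 ± 0.56 in PAM I, -2.68 ± 0.57 in PAM II and -1.94 ± 0.55 in aged no-antibiotic livers.

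Slc22a30 had a smaller log2 fold change in the same direction. It had 69.8, 76.2, 80.0 and 57.3 CPM in PAM I livers, 44.2, 81.4, 88.6 and 75.3 CPM in PAM II livers and 90.5, 99.3, 86.4 and 71.6 CPM in aged no-antibiotic livers, against 145, 115, 137 and 150 CPM in young livers. The highest aged liver was below the lowest young one. The log2 fold change over young livers was -0.95 ± 0.18 in PAM I, -0.92 ± 0.18 in PAM II and -0.65 ± 0.18 in aged no-antibiotic livers. Slc22a28 and Slc22a30 are nearly identical in coding and upstream sequence. The difference between their fold changes was not tested, and reads from their shared exon sequence cannot be told apart.

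**Figure D2:**
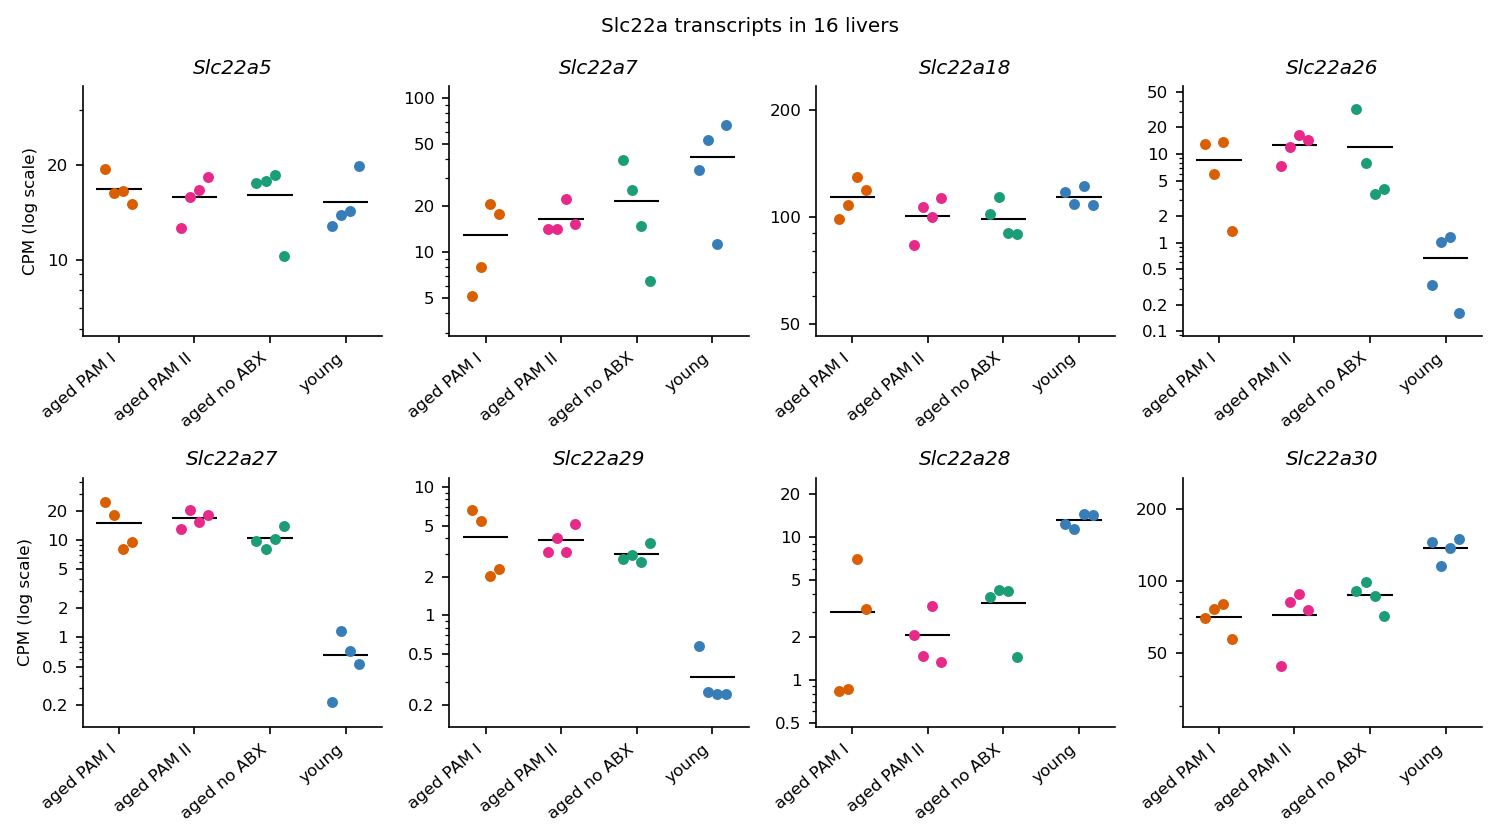
TMM-scaled CPM on a log axis in each of 16 livers (points, replicates 1 to 4 from left to right) with the mean of each group (line), for the 7 listed genes and Slc22a29. Slc22a26, Slc22a27 and Slc22a29 are higher, and Slc22a28 and Slc22a30 lower, in every aged than in every young liver, while Slc22a5, Slc22a7 and Slc22a18 overlap.

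By the edgeR quasi-likelihood test with Benjamini-Hochberg adjustment over all 17046 genes kept, 2 of the 7 genes were called in aged no-antibiotic against young livers, Slc22a26 and Slc22a27, both higher, and 3.23% of all genes were called in that comparison, 1.92% higher and 1.31% lower. In 4 of the 7 the groups did not overlap, as in 9.27% of all genes. In PAM I against young livers 4 of the 7 were called, beside 8.22% of all genes (4.83% higher and 3.38% lower), and in PAM II against young livers also 4, beside 5.19% of all genes (3.17% higher and 2.01% lower). In both, Slc22a26 and Slc22a27 were higher and Slc22a28 and Slc22a30 lower, and the groups did not overlap for these 4 genes, as for 16.9% of all genes with PAM I and 14.3% with PAM II. Since the genes were listed for their levels in these groups, these counts describe the choice and are no test of it. Without young replicate 1, and likewise without young replicate 4, the call of Slc22a26 was lost in aged no-antibiotic against young livers, which left 1 gene. Of all genes, 271 and 199 were called in these 2 fits. In PAM I against young livers the same fits called 2 of the 7, beside 924 and 610 of all genes. DESeq2 called 4 of the 7 in aged no-antibiotic against young livers, with Slc22a28 and Slc22a30 lower, beside 1343 of all genes. The fit without the 8 libraries rich in muscle markers called fewer of the 7, and fewer of all genes, in each of the 3 comparisons.

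Slc22a29, the other gene of the row, was not on the list. Like Slc22a27, whose coding sequence is closest to it, it was higher in aged than in young livers. It had 6.59, 5.39, 2.01 and 2.31 CPM in PAM I livers, 3.11, 3.98, 3.13 and 5.18 CPM in PAM II livers and 2.76, 2.97, 2.59 and 3.63 CPM in aged no-antibiotic livers, against 0.580, 0.250, 0.243 and 0.241 CPM in young livers. Every aged liver was above every young one. The log2 fold change was 3.20 ± 0.42 in aged no-antibiotic over young livers (edgeR adjusted p = 0.000651), 3.64 ± 0.42 in PAM I over young livers (edgeR adjusted p = 0.000224) and 3.56 ± 0.42 in PAM II over young livers (edgeR adjusted p = 0.000241). The young livers are shared by these comparisons, and their values rest on 9 to 19 fragments per library.

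The makeup of the transcripts of the 5 chromosome 19 genes differed between aged and young livers with no overlap. Their summed level was 24.5 to 39.7 CPM per kilobase in PAM I livers (median 36.2), 24.0 to 42.1 in PAM II livers (median 39.5) and 31.5 to 45.6 in aged no-antibiotic livers (median 37.0), against 40.9 to 52.1 in young livers (median 49.2). The sum in PAM I livers lay below that in young livers without overlap, while PAM II and aged no-antibiotic livers overlapped with young livers. Slc22a28 and Slc22a30 together made up 53.1 to 75.7% of it in PAM I livers, 58.8 to 66.3% in PAM II livers and 63.2 to 80.4% in aged no-antibiotic livers, against 97.5 to 99.2% in young livers. Slc22a26, Slc22a27 and Slc22a29 thus made up at least 19.6% in each of the 12 aged livers, against 0.787 to 2.45% in young livers. The ratio of Slc22a27 to Slc22a28, both per kilobase, was 1.08 to 27.2 in PAM I livers, 4.36 to 13.1 in PAM II livers and 1.76 to 8.96 in aged no-antibiotic livers, against 0.0162 to 0.0958 in young livers. All of these genes but Slc22a29 were listed for their levels in these groups. The shares and the ratio restate those levels, so they describe the choice and are no test of it. They also carry the uncertainty of the shared exon sequence and of the few fragments in young livers.

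**Figure D3:**
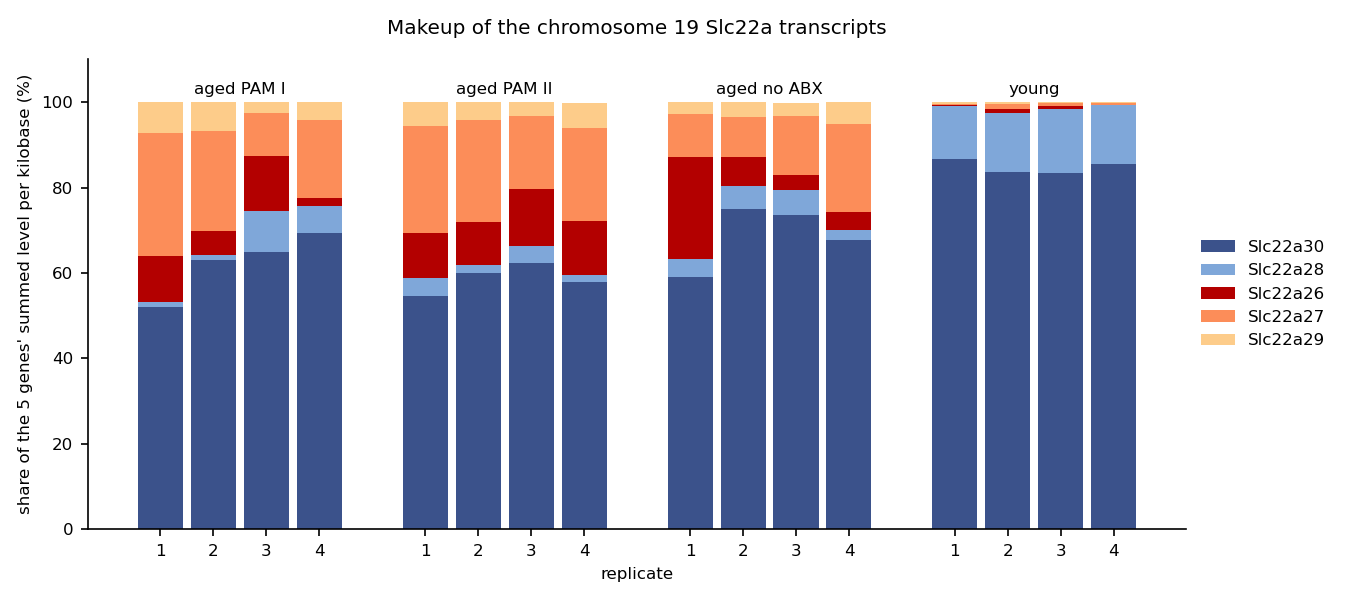
Share of each of 5 neighbouring chromosome 19 genes in their summed level per kilobase, 1 bar a liver, by group. Slc22a28 and Slc22a30 (blue) hold 53.1 to 80.4% in aged livers and 97.5 to 99.2% in young livers.

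Of the other Slc22a genes, 1 fell and 7 did not pass the test in aged no-antibiotic against young livers. Slc22a4 (OCTN1), the ergothioneine transporter encoded near Slc22a5, had 1.57, 2.29, 2.02 and 1.98 CPM in aged no-antibiotic livers, against 5.43, 3.15, 3.23 and 2.95 CPM in young livers. The groups did not overlap, and the log2 fold change was -0.91 ± 0.22 (edgeR adjusted p = 0.0343). Over young livers it was -0.88 ± 0.22 in PAM I (edgeR adjusted p = 0.0244) and -0.63 ± 0.22 in PAM II livers, where the gene did not pass (edgeR adjusted p = 0.0984). The call in aged no-antibiotic livers was lost without young replicate 1, where the log2 fold change was -0.66, and in 4 of the other 7 fits that left out 1 liver. With Slc22a29 higher, 2 of 9 measured genes were called, and their median log2 fold change was -0.09. Slc22a3 (OCT3), an organic cation transporter, had a log2 fold change of 0.34 ± 0.20 and did not pass (edgeR adjusted p = 0.371).

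No listed gene was separated between an antibiotic group and the aged no-antibiotic group. In PAM I against aged no-antibiotic livers 0 of the 7 were called, beside 0% of all genes, and all 7 overlapped, while 5.47% of all genes did not overlap. An unadjusted p under 0.05 was reached by 1602 of all 17046 genes there, and DESeq2 called 16 of all genes and none of the 7. In PAM II against aged no-antibiotic livers 0 of the 7 were called, again beside 0% of all genes, and all 7 overlapped, while 2.1% of all genes did not. There 465 genes had an unadjusted p under 0.05. In PAM II against PAM I livers 0 of the 7 and 0% of all genes were called, and all 7 overlapped while 4.66% of all genes did not, with 778 genes under an unadjusted p of 0.05. The 9 other measured Slc22a genes gave 0 calls in each of these comparisons. The first 2 comparisons share the aged no-antibiotic livers.

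Slc22a27 had log2 fold changes of 0.52 ± 0.35 in PAM I and 0.68 ± 0.35 in PAM II over aged no-antibiotic livers. For Slc22a29 they were 0.45 ± 0.35 (edgeR adjusted p = 0.711) and 0.36 ± 0.35 (edgeR adjusted p = 1). Slc22a30 had -0.30 ± 0.18 in PAM I and -0.26 ± 0.18 in PAM II. Slc22a26 had -0.50 ± 0.71 and 0.07 ± 0.71, Slc22a28 had -0.21 ± 0.54 and -0.74 ± 0.55, and Slc22a7 had -0.74 ± 0.55 and -0.39 ± 0.55, in PAM I and then in PAM II. For these 3 genes the SE was at least 0.54, so that moderate changes could not be detected at this spread.

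**Figure D4:**
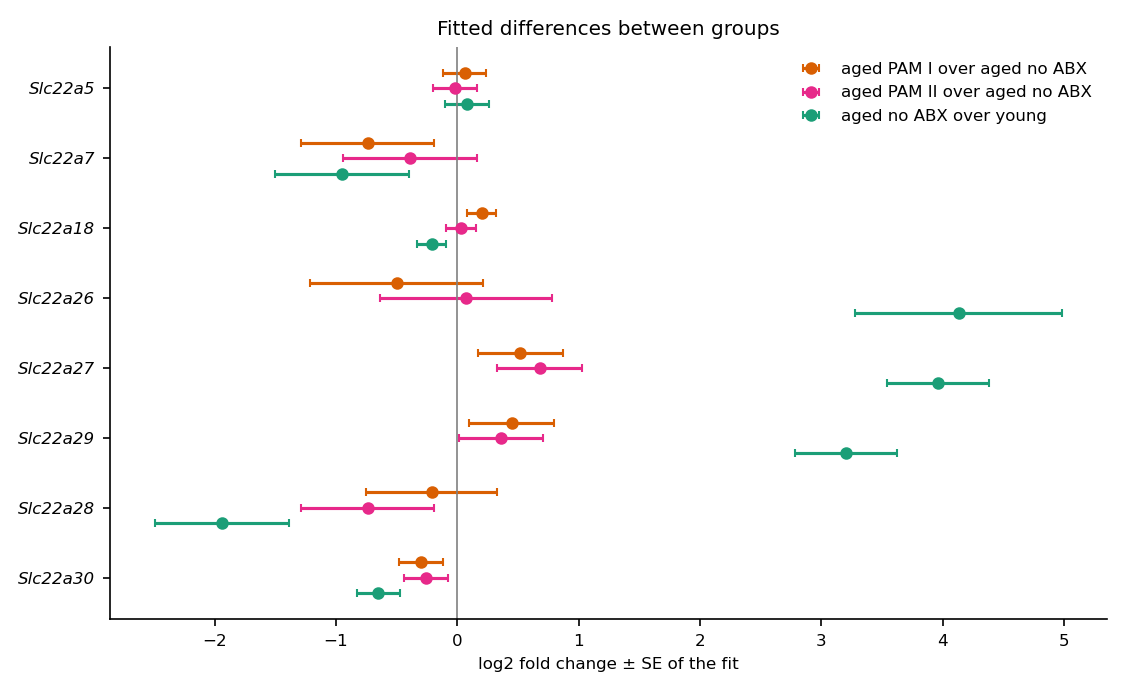
Log2 fold change with its SE for the 7 listed genes and Slc22a29, in PAM I over aged no-antibiotic livers, PAM II over aged no-antibiotic livers and aged no-antibiotic over young livers. The values of Slc22a26, Slc22a27 and Slc22a29 over young livers lie between 3.20 and 4.13, and those for the antibiotic groups all lie between -0.74 and 0.68.

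Within the PAM I group, Slc22a27, Slc22a28 and Slc22a7 set replicates 1 and 2 apart from replicates 3 and 4, a division noticed in the values. Replicates 1 and 2 had high Slc22a27 (24.5 and 18.2 CPM) and low Slc22a28 (0.839 and 0.855 CPM) and Slc22a7 (5.16 and 7.96 CPM). Replicates 3 and 4 had lower Slc22a27 (8.13 and 9.62 CPM) and higher Slc22a28 (7.03 and 3.15 CPM) and Slc22a7 (20.6 and 17.6 CPM). Slc22a18 also divided them, with 98.8 and 108 CPM in replicates 1 and 2 and 130 and 119 CPM in replicates 3 and 4. Slc22a26 (12.8, 5.88, 13.7 and 1.36 CPM in replicates 1 to 4), Slc22a30 (69.8, 76.2, 80.0 and 57.3 CPM) and Slc22a5 did not divide the livers this way. The share of all genes that divide these livers so was not counted, so the division is a description and may be no more common here than elsewhere. The same livers differed in skeletal muscle markers, which summed to 39.6 and 41.1 CPM in replicates 1 and 2 and to 2.30 and 1.96 CPM in replicates 3 and 4. Kupffer cell markers ran the other way, with sums of 145 and 215 CPM in replicates 1 and 2 and of 618 and 554 CPM in replicates 3 and 4. Bile duct markers summed to 110 and 137 CPM in replicates 1 and 2 and to 38.6 and 71.1 CPM in replicates 3 and 4. The part of the Kupffer cell and bile duct markers in the result was not tested. Muscle markers and Slc22a27 did not go together in every group. Aged no-antibiotic replicate 2 had the most muscle of its group (12.3 CPM) and the lowest Slc22a27 (8.05 CPM). Young replicate 1 likewise had the most muscle (108 CPM) and the lowest Slc22a27 (0.214 CPM). PAM II replicate 1 had the least muscle (1.70 CPM) and the lowest Slc22a27 (12.9 CPM) of its group. In a fit without the 8 libraries with over 10 CPM of summed muscle markers, chosen after the data were seen, the log2 fold change of PAM I over aged no-antibiotic livers was -0.37 ± 0.25 for Slc22a27 and 0.67 ± 0.48 for Slc22a28. That fit left out PAM I replicates 1 and 2, so its PAM I values rest on replicates 3 and 4 and are no test of the division. In the same fit the log2 fold change of aged no-antibiotic over young livers was 3.55 ± 0.30 for Slc22a27 and -2.05 ± 0.48 for Slc22a28. Both genes were listed for their levels in these groups, so these values are a description.

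**Figure D5:**
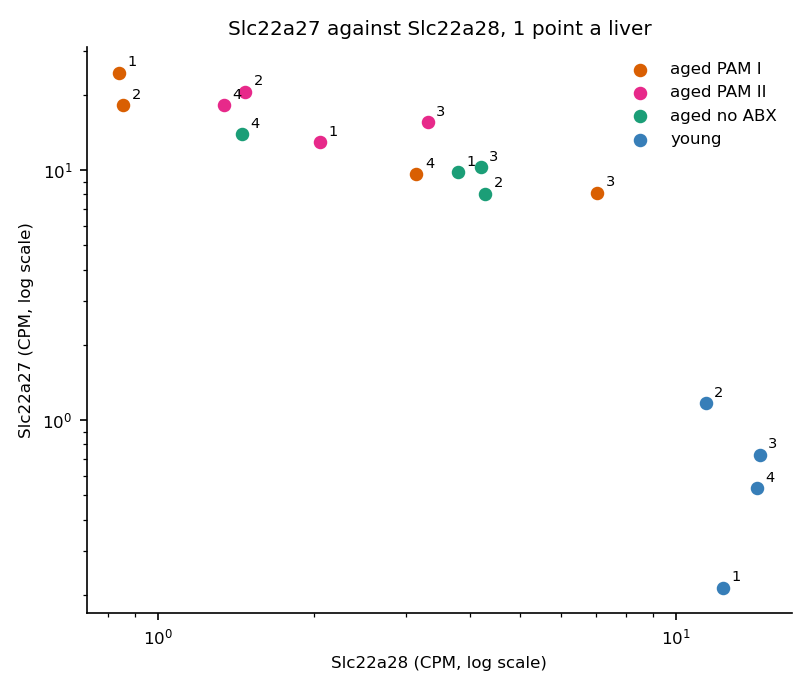
Slc22a27 against Slc22a28 in CPM on log axes, 1 point a liver, numbered by replicate within its group. Young livers stand apart at high Slc22a28 and low Slc22a27, and PAM I replicates 1 and 2 stand at the opposite end from young livers.

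With the group means removed, Slc22a28 ran against Slc22a29 and, less closely, against Slc22a27. Over the 16 libraries its log2 CPM had a Pearson r of -0.807 with Slc22a29 and of -0.618 with Slc22a27, and of 0.623 with Slc22a7. The genes of each close pair did not run together: r was 0.21 for Slc22a27 with Slc22a29 and 0.185 for Slc22a28 with Slc22a30. Slc22a5 had an r of 0.778 with Slc22a23, an orphan member of the family. These values are a description over 16 livers that share library scaling, and the chromosome 19 genes share exon sequence besides.

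The genes whose pattern was most like that of each listed gene were sought among 10662 protein-coding genes, by Pearson r of log2 CPM over the 16 libraries after group means were removed. Slc22a28 was closest to Slco1a1, an organic anion uptake carrier of the hepatocyte (r = 0.948), then to Serpina1e, a serine protease inhibitor (r = 0.936), and to C6, a complement component (r = 0.902). All 3 stand on the list of genes known to be higher in male than in female mouse liver. That list was drawn up with results of these data known, so a place on it is a description. Slc22a30 was closest to Jmjd4 (r = 0.919), Hsd3b2 (r = 0.904), also on that list, and Masp2 (r = 0.890). Slc22a27 was closest to Raet1d (r = 0.890), Fbxl4 (r = 0.876) and Ly75 (r = 0.870), and Slc22a26 to Tmem185a (r = 0.827), Abl1 (r = 0.818) and Ggt6 (r = 0.810). Slc22a7 was closest to Slc35b1 (r = 0.915), Nubp2 (r = 0.903) and Urah (r = 0.892), Slc22a5 to Ppp6r2 (r = 0.938), Fbxo9 (r = 0.937) and Pgap1 (r = 0.922), and Slc22a18 to Taf6 (r = 0.894), Ces1b (r = 0.890) and Hgd (r = 0.879).

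In aged no-antibiotic against young livers 17 of 21 measured male-biased genes of liver fell and 0 rose, where 1.31% of all genes fell. The male-biased genes had a median log2 fold change of -2.28, beside -0.01 over all genes. When any 1 liver was left out 10 to 14 were called. Among them Hsd3b5, a steroid dehydrogenase, averaged 0.702 CPM in aged no-antibiotic and 215 CPM in young livers, and Selenbp2 averaged 9.99 and 529 CPM (edgeR adjusted p = 0.000406 and 9.14e-05). Serpina1e and C6 were among those that fell. Slco1a1 averaged 18 CPM in aged no-antibiotic and 316 CPM in young livers and did not pass the test (edgeR adjusted p = 0.0545). Female-biased genes numbered 20 measured, of which 7 were called higher and 0 lower, where 1.92% of all genes were called higher, and 13 were not called. Cyp3a16, one of these 13, had a log2 fold change of -0.58 ± 0.40 (edgeR adjusted p = 0.464). The 20 genes had a median log2 fold change of 2.39. Those that rose included Cyp2b9 (log2 fold change 11.04 ± 0.98, edgeR adjusted p = 3.56e-05) and Cyp2a4 (5.38 ± 0.86, edgeR adjusted p = 0.00316), both cytochromes P450. When any 1 liver was left out 4 to 7 were called. The sex-biased lists were drawn up with results of these data known.

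Of 15 other hepatocyte uptake carriers 1 rose and 1 fell in aged no-antibiotic against young livers, where 3.23% of all genes were called. Slc16a7, a monocarboxylate transporter, rose (log2 fold change 1.11 ± 0.26, edgeR adjusted p = 0.0319), and Slco2a1, a prostaglandin transporter, fell (-0.96 ± 0.21, edgeR adjusted p = 0.0220). Of 12 measured efflux carriers 2 rose, Abcc4 (1.63 ± 0.40, edgeR adjusted p = 0.0374) and Abcb1a (1.44 ± 0.36, edgeR adjusted p = 0.0403), both ATP-driven exporters. The calls of carriers were unstable, with 0 to 3 uptake carriers and 0 to 1 efflux carriers called when any 1 liver was left out. No gene of any of these lists was called between an antibiotic group and the aged no-antibiotic group or between PAM II and PAM I.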

How the data were processed

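The deposited files hold raw counts of fragments per gene, 1 library a file, not normalized by the authors. Per the submitters' processing notes, Trimmomatic 0.38, HISAT2 2.1.0, featureCounts 1.5.0-p2 and build mm10 were used. The file headers give featureCounts' sum over exons of each gene, Ensembl release 99 and strand setting 1. Symbols came from a GRCm38 annotation (GENCODE) for 55230 of 55471 identifiers. edgeR 4.0.16 (R 4.3.3) was run after filterByExpr, which left 17046 genes, and TMM scaling, as 1 quasi-likelihood model with a mean for each group over all 16 libraries. Calls are at 0.05 after Benjamini-Hochberg adjustment across all genes kept. The script was tested on simulated counts. CPM are TMM-scaled, errors of levels are SD, errors of log2 fold changes are the SE of the fit, and overlap compares the CPM of 4 libraries a group. Likeness used log2 CPM with a prior count of 2 and genes of mean log2 CPM of at least 1. Upstream sequences are from RefSeq (GRCm38.p6), which gave windows for all but Slc22a7, and were aligned with Biopython 1.88.

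Some genes and 1 list are not reported here. The genes, lists and tests were chosen with earlier results of these data known. The 7 genes were named in full, and the other Slc22a genes where they passed the filter. Of each other list, called genes were named from the first 4 by p. Serpina1e, C6 and Hsd3b2 were named for their likeness to a listed gene, and a few uncalled genes after their values were seen. Slc22a6, Slc22a8 and Slc22a12, which did not pass the filter, are named as kidney transporters. The labels number no replicates, so numbers follow sample order and pair nothing. Where nothing says how animals were kept, p-values measure only the spread between these samples. No 2 libraries were copies, and the closest pair differed by 0.493 (root mean square, log2 CPM). The alternatives changed the scaling (RLE, upper quartile), the filter (none, or 1 CPM in 4 libraries), the robust dispersions, the tool (DESeq2 1.42.0, voom in limma 3.58.1 with quality weights) and the livers fitted (only the groups compared, or with livers left out). Leaving out libraries with over 10 CPM of muscle markers was added after seeing the data.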

Additional observations from a re-analysis of the deposited data

Results flagged for a closer look

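A liver far from the other 3 of its group was found in 5 of 40 group and gene pairs, over 10 Slc22a genes (the gap to the nearest liver, divided by the range of the group, above Dixon's critical value). Chance alone flags about 1 in 20 groups. Slc22a7 reached 22 CPM in PAM II replicate 3, above the other PAM II livers. Slc22a5 was lowest in aged no-antibiotic replicate 4, at 10.3 CPM. Slc22a26 was highest in aged no-antibiotic replicate 1, at 32.4 CPM. In young replicate 1 both Slc22a29, at 0.580 CPM, and Slc22a4, at 5.43 CPM, stood above the other young livers. That library had the smallest total of the 16, 36968993 fragments, and 108 CPM of summed muscle markers, and the part of either was not tested.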

How the results depend on the processing

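None of the called fold changes of the 10 Slc22a genes refitted under the alternatives reversed its direction, and single genes of the other lists were not followed across alternatives. Slc22a27 and Slc22a29 were called in each aged group against young livers in all 8 fits that left out 1 liver of the comparison and in all 10 other alternatives. Slc22a27 was listed for its levels in these groups, so its calls describe that choice and are no test of it. For Slc22a26 in aged no-antibiotic over young livers the log2 fold change ran between 2.91 and 4.53. No paired analysis was possible because the labels give no replicate numbers that groups share. The young levels of Slc22a26, Slc22a27 and Slc22a29 rest on 6 to 48 fragments per library, which limits the precision of fold changes over young livers.

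Counts that moved by over 1.5 times are as follows, and the cause was not tested. In aged no-antibiotic against young livers (551 genes), DESeq2 called 1343, a fit of only these groups 198, leaving out aged no-antibiotic replicate 4 and young replicate 1 together 155, the fit without muscle-rich libraries 20, and leaving out 1 liver 199 to 573. In PAM I against aged no-antibiotic livers (0 genes), DESeq2 called 16 and the muscle fit 2. In PAM II against aged no-antibiotic livers (0 genes), the muscle fit called 12. In PAM I against young livers (1401 genes), no filter gave 896, DESeq2 2629, voom 2627, the muscle fit 10 and leaving out 1 liver 544 to 1529. In PAM II against young livers (884 genes), DESeq2 gave 1860, voom 1552, the muscle fit 32 and leaving out 1 liver 373 to 925. The muscle fit kept 2 PAM I, 1 PAM II, 3 aged no-antibiotic and 2 young livers, and assumes that the lone PAM II liver varies like the others.

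Of the 7 listed genes, 2 were called in aged no-antibiotic against young livers, 1 with no filter, 4 with DESeq2, 1 without the livers left out together, 1 in the muscle fit and 1 to 2 with 1 liver left out. In PAM I against young livers 4 were called, 2 with no filter, 1 in the muscle fit and 2 to 4 with 1 liver left out, and in PAM II against young livers 4, and 1 in the muscle fit. The other Slc22a genes (2 called) gave 1 with no filter, with only the groups compared, without the livers left out together and in the muscle fit, and 1 to 2 with 1 liver left out.

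Of the lists in aged no-antibiotic against young livers, carnitine genes (0 called) gave 1 under upper-quartile scaling, the stricter filter, DESeq2 and voom, and 0 to 1 with 1 liver left out. Uptake carriers (2) gave 5 with DESeq2, 1 with only the groups compared, 0 without the livers left out together and in the muscle fit, and 0 to 3 with 1 liver left out. Efflux carriers (2) gave 1 with no filter, voom or only the groups compared, 0 without the livers left out together and in the muscle fit, and 0 to 1 with 1 liver left out. Genes of the Kcnq1 domain (0) gave 2 with DESeq2 and 0 to 1 with 1 liver left out. Female-biased genes (7) gave 3 with voom, 3 without the livers left out together, 2 in the muscle fit and 4 to 7 with 1 liver left out. Male-biased genes (17) gave 11 with no filter, 7 without the livers left out together, 5 in the muscle fit and 10 to 14 with 1 liver left out.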
